A study of Mus musculus with 6 samples.

Results

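The set described here comprises interferon-stimulated genes, taken from a list of 37 symbols that was matched against the gene symbols of the deposited count matrices. Of these, 35 were found among the 32285 features of every matrix. Mx1 and Mx2 were not analysed here. Nuclei had been isolated from the frontal lobe of 6 mice and sequenced with a droplet-based 3′ method, which counts unique molecular identifiers (UMIs), one for each captured RNA molecule. All 6 mice carried Tg-SwDI, a transgene for human amyloid precursor protein with the Swedish, Dutch and Iowa mutations, in which amyloid gathers in the walls of small brain vessels. Mice of one group had wild type Trem2 (SwDI/TWT, n = 3) and mice of the other lacked Trem2 (SwDI/TKO, n = 3), so that the comparison asked how loss of this microglial receptor alters nuclear RNA on the same amyloid background. The labels give neither age nor sex, nor the kind of knockout allele, and brain without the transgene was not analysed here.

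Type I interferons bind a receptor of Ifnar1 and Ifnar2 and activate the kinases Jak1 and Tyk2. These activate transcription factors, among them Stat2 with Irf9, which bind interferon-stimulated response elements in the promoters of target genes. The targets include sensors of foreign RNA, enzymes that block translation or degrade RNA, ubiquitin-like modifiers, membrane restriction factors, guanylate-binding GTPases and chemokines. In brain the response is known from microglia near amyloid, from border macrophages of the vessels and meninges, and from oligodendrocyte lineage cells in injury and ageing models.

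The promoters of members on which the comparisons below turn are shown first, because such an element is how genes of this kind are known to be switched on. Of the 35 members, 28 had an entry in the RefSeq promoter table for GRCm38.p6, which holds 250 bases before and 50 after each start. The letters GAAANNGAAA, the core of the response element, were searched on both strands. They occurred in 15 of the 28 members (53.6%) and in 3.99% of all 27025 genes with an entry. A second pattern, TTCNNNGAA, a palindrome known from promoters that answer interferon gamma, occurred in 7 of the 28 members (25%) and in 9.55% of all genes. The members with GAAANNGAAA were Trim30a, Stat2, Ifit1, Ifit3, Isg15, Oas1a, Bst2, Ifitm3, Ifih1, Ddx60, Eif2ak2, Ifi207, Cxcl10, Gbp2 and Gbp3. Usp18, Parp14, Zbp1, Rtp4, Ifi204, Ifi27 and Dhx58 had no entry. The 5 sequences below are the 250 bases before the start, on the strand of the gene, with each match to GAAANNGAAA on either strand in capitals. They were chosen after the values were seen, as the members with the largest or most opposed differences.
Sp100, chr1:85649738-85649987, plus strand: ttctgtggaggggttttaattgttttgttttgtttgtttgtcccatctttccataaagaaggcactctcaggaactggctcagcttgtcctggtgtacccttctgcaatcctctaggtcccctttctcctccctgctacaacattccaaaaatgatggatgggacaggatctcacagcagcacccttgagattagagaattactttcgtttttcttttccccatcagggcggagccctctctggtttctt
Trim30a, chr7:104465194-104465443, minus strand: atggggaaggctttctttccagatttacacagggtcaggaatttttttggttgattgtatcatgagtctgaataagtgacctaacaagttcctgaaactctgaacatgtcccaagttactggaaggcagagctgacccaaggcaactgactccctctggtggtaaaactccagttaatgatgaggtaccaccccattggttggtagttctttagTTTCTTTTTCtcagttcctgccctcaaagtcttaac
Cxcl10, chr5:92348890-92349139, minus strand: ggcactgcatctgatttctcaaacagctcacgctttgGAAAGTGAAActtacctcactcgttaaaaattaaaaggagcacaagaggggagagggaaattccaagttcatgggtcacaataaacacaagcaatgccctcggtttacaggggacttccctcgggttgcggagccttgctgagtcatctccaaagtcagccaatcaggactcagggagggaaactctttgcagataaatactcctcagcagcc
Ifit3, chr19:34583279-34583528, plus strand: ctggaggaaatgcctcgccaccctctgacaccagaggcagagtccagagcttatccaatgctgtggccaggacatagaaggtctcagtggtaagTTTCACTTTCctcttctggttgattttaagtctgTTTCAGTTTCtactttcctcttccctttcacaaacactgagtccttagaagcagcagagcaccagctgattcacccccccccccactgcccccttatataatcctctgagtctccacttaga
Ddx60, chr8:61927837-61928086, plus strand: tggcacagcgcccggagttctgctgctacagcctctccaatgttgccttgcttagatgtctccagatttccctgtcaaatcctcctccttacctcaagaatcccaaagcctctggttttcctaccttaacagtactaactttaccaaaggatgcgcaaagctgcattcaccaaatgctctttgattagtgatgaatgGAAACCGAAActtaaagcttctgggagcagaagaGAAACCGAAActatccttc
Sp100 held no match in this window, Trim30a and Cxcl10 held 1 each, and Ifit3 and Ddx60 held 2 each. The matches in Ddx60 lay 53 to 44 and 19 to 10 bases before the start, that of Trim30a 36 to 27 bases, those of Ifit3 156 to 147 and 122 to 113 bases, and that of Cxcl10 213 to 204 bases. A match describes the letters only and does not show that a factor was bound.

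After filtering, 33008 nuclei were kept, 4427 to 7460 in each library, and they were placed in classes by markers after clustering without the members. Knockout replicate 1 stood apart: its files name a later version of the counting software than the other 5 libraries, its median was 5309.5 UMIs for each nucleus against 1444.5 to 2465, and it made up nearly all of several clusters, such as 1282 of 1297 nuclei in an excitatory neuron cluster. It was the lowest of the 6 libraries for 16 of the 35 members over all kept nuclei and the highest for 3. Its level relative to the mean of the other libraries had a median of 0.441 for the 18 members with at most 12910 intron bases and of 0.900 for the 17 members with more. Values are therefore given with and without this library. Trem2 in microglia was 1608, 1393 and 816 UMIs per 1000000 UMIs of the class (CPM) in SwDI/TWT and 250, 668 and 428 CPM in knockout libraries, so RNA of the targeted gene was lower in all knockout libraries but was still counted. Between 23.5% and 43.8% of kept nuclei in each library stayed unnamed. Pairs of libraries shared 8 to 18 barcodes.

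The members held 25944 of the 106961946 UMIs of all kept nuclei, from 14 for Oas1a to 7307 for Adar. Adar, Stat2, Ifi27, Herc6 and Irf9 alone held 69.4% of them, and 7 members had fewer than 100 UMIs in the whole study. Values in CPM are listed in replicate order, and means with their SD are over the 6 libraries unless said otherwise. Because the method counts the 3′ ends of RNA and may include unspliced RNA in a way that differs between genes, levels are compared between classes and genotypes for the same gene, not between genes. Differences between classes are descriptions without a test, and free RNA was not removed. RNA of other classes was not at one level: microglial markers summed to 57.0 to 116 CPM in excitatory neurons and to 175 to 244 CPM in oligodendrocytes.

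Among 9 classes compared, border macrophages and microglia, the macrophages of the brain, held most members at their highest level. Border macrophages had the highest mean for 23 of the 35 members, fibroblasts for 5, microglia for 4, and astrocytes, inhibitory neurons and oligodendrocyte precursors for 1 each. Border macrophages and fibroblasts were included although they did not reach 20 nuclei in every library. Mural and endothelial cells, which were fewer still, were left out of this order. The border macrophages were only 220 nuclei, 13 to 61 in each library, and the fibroblasts 400 nuclei, 9 to 169 in each library. Single genes therefore rest on few UMIs in these 2 classes. The defining markers of border macrophages were nearly absent from microglia: all 8 markers together reached 0 to 29.2 CPM there, with Cd163, F13a1, Cbr2 and Clec10a at 0.

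**Figure D1:**
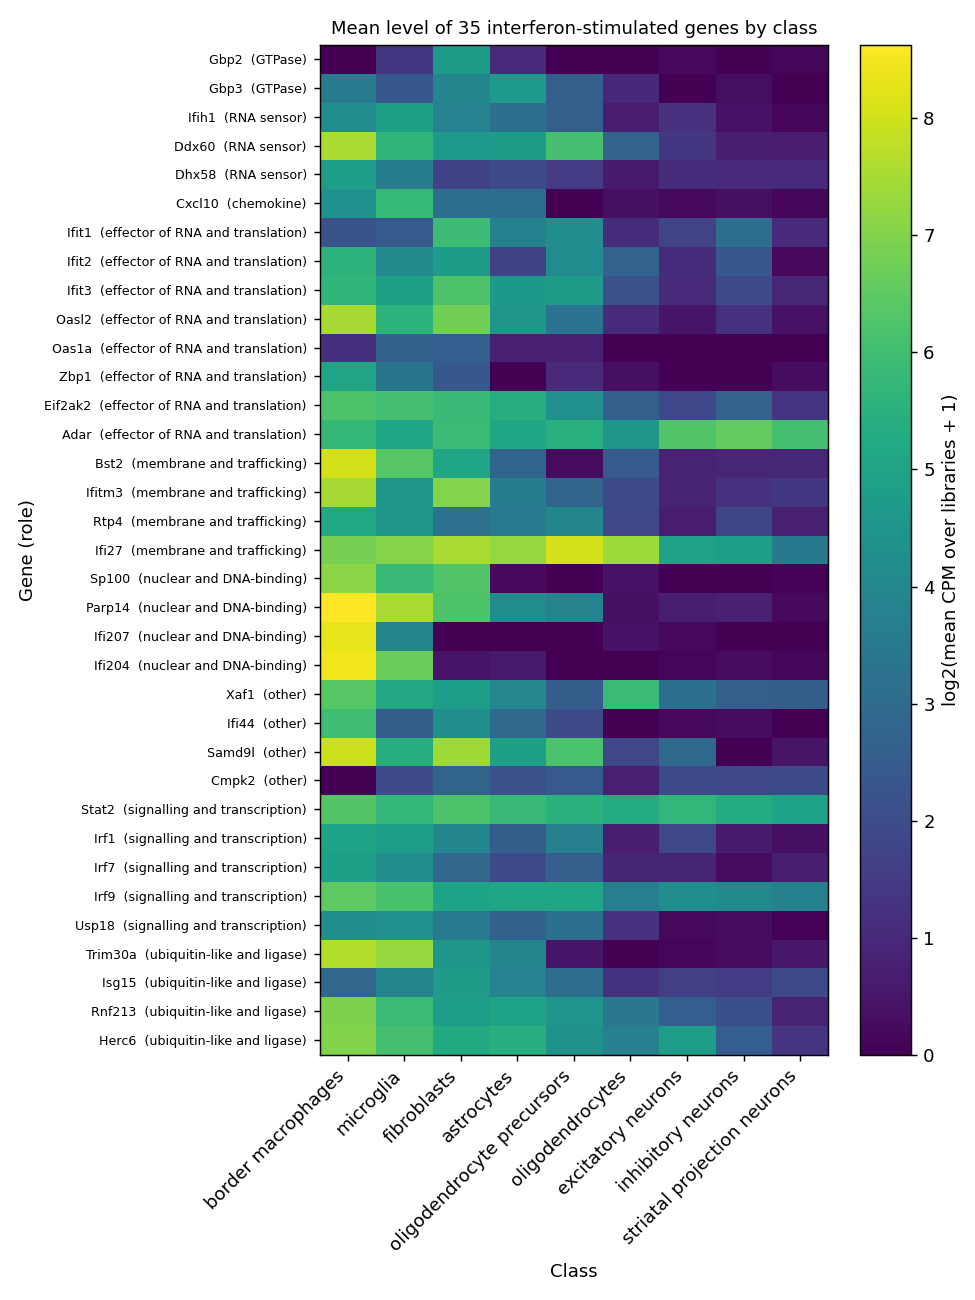
Mean level of the 35 members (rows, grouped by role) in 9 classes of nuclei (columns), as log2 of the mean CPM over 6 libraries plus 1. Border macrophages are highest for 23 members, whereas Adar is highest in inhibitory neurons (mean 93.1 CPM) and Ifi27 in oligodendrocyte precursors (mean 270.6 CPM).

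Among the members that carry the signal itself, Stat2 was present in every class of the plot of levels by class. Its mean ran from 31.1 ± 6.36 CPM (SD, n = 6) in striatal projection neurons to 79.1 ± 51.4 CPM in border macrophages, and the ranges over libraries overlapped. Irf9, which binds DNA together with Stat2, averaged 89.4 ± 41.0 CPM in border macrophages, 70.6 ± 31.4 CPM in microglia and 12 ± 5.94 CPM in oligodendrocytes. Usp18, which removes Isg15 from proteins and damps the receptor, was at 19.7 ± 18.0 CPM in microglia and at 0.146 ± 0.236 CPM in excitatory neurons. Irf1, a transcription factor of the interferon response, averaged 27.5 ± 21.3 CPM in microglia and 0.289 ± 0.272 CPM in striatal projection neurons. Thus the transducing subunits were counted in neurons while the feedback regulator Usp18 was close to 0 there.

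The RNA sensors and effectors differed in where they were highest. Ifih1, the cytoplasmic sensor of long double-stranded RNA, had its highest mean in microglia at 29.1 ± 14.9 CPM, with 17.5 ± 27.5 CPM in border macrophages. Ddx60, a helicase of the antiviral response, averaged 186.6 CPM in border macrophages, 67.4 ± 54.2 CPM in oligodendrocyte precursors and 50.5 ± 19.6 CPM in microglia. Adar, which edits adenosine to inosine in double-stranded RNA, had its highest means in the neuron classes. It averaged 93.1 ± 18.0 CPM in inhibitory neurons, 77.5 ± 18.4 CPM in excitatory neurons and 65.0 ± 11.1 CPM in striatal projection neurons, against 58.3 ± 29.7 CPM in fibroblasts, 33.6 ± 10.7 CPM in microglia and 22.8 ± 2.78 CPM in oligodendrocytes. It alone made up 43.6% of member UMIs in inhibitory and 45.7% in striatal projection neurons. Ifit1 and Ifit3, which bind foreign RNA, were highest in fibroblasts, at 58.8 ± 43.7 CPM and 73.8 ± 54.6 CPM, on 25 and 40 UMIs.

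Members at membranes and in the nucleus marked the macrophages and the oligodendrocyte lineage. Ifi204 and Ifi207, DNA-binding proteins of the same family, were the only 2 members with every border macrophage library above every library of the class with the second highest mean. Ifi207 averaged 321.5 ± 162 CPM in border macrophages and 14.5 ± 12.7 CPM in microglia, and Ifi204 averaged 347.3 ± 115 CPM and 100.4 ± 46.0 CPM. In fibroblasts Ifi207 had 0 UMIs, which allows up to 4.12 CPM. Bst2, which tethers budding virions to the membrane, averaged 267.4 ± 156 CPM in border macrophages, 83.6 ± 27.8 CPM in microglia and 0.207 ± 0.506 CPM in oligodendrocyte precursors. Ifi27, a small hydrophobic protein of mitochondria, was highest in oligodendrocyte precursors, where it was 255, 286 and 217 CPM in SwDI/TWT and 146, 318 and 401 CPM in knockout libraries. It averaged 165.9 CPM in oligodendrocytes and 10.2 CPM in striatal projection neurons.

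Sp100, a component of nuclear bodies, was counted in macrophages, fibroblasts and vessel cells and was near 0 in neurons, astrocytes and the oligodendrocyte lineage. Its mean was 138.4 ± 101 CPM in border macrophages, 77.7 ± 28.2 CPM in fibroblasts and 57.2 ± 37.1 CPM in microglia. It had 0 UMIs in oligodendrocyte precursors and in inhibitory neurons, which allows up to 1.81 and 0.344 CPM. Trim30a, a ligase that restrains Toll-like receptor signalling, averaged 199.8 ± 86.4 CPM in border macrophages, 153.0 ± 70.0 CPM in microglia and 22.6 ± 19.6 CPM in fibroblasts, with 0 UMIs in oligodendrocytes, which allows up to 0.575 CPM. Parp14, a mono-ADP-ribosyltransferase, averaged 395.4 ± 236 CPM in border macrophages and 184.9 ± 85.6 CPM in microglia. Samd9l, which slows growth and inhibits translation, averaged 248.0 CPM in border macrophages, 168.3 ± 98.0 CPM in fibroblasts and 72.1 ± 42.0 CPM in oligodendrocyte precursors. Xaf1, a pro-apoptotic zinc finger protein, differed between the stages of one lineage: it averaged 58.1 ± 17.2 CPM in oligodendrocytes on 300 UMIs and 4.80 CPM in their precursors. Gbp3, a guanylate-binding GTPase, was highest in astrocytes at 23.7 ± 18.4 CPM.

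The smallest classes were described by counts alone. Mural cells were 54 nuclei, with 11 UMIs of Ifi27, 10 of Ifitm3 and 5 of Sp100. Ifi27 UMIs of mural cells were 0, 0 and 0 in SwDI/TWT and 3, 0 and 8 in knockout libraries. Endothelial cells were 31 nuclei, none in wild type replicate 2, with 19 UMIs of Ifitm3, 13 of Ifi27 and 7 of Sp100. The members' share of endothelial UMIs averaged 0.429%, on 113 member UMIs, against 0.359% in border macrophages. Ifitm3, which blocks fusion of viruses in endosomes, had 6 and 7 UMIs in wild type replicates 1 and 3 and 6, 0 and 0 UMIs in the knockout libraries. Mural and endothelial cells were both too small for a comparison of genotypes.

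The members' summed share of UMIs was highest in border macrophages and lowest in striatal projection neurons among the 9 classes compared. In microglia it was 0.161%, 0.0935% and 0.129% in SwDI/TWT and 0.118%, 0.221% and 0.206% in knockout libraries. In border macrophages it was 0.472%, 0.5% and 0.411% in SwDI/TWT and 0.236%, 0.262% and 0.276% in knockout libraries. In oligodendrocyte precursors it was 0.0576%, 0.0645% and 0.0504% in SwDI/TWT and 0.0462%, 0.114% and 0.121% in knockout libraries. In excitatory neurons it was 0.0210%, 0.0253% and 0.0221% against 0.0179%, 0.0299% and 0.0324%, and in inhibitory neurons 0.0194%, 0.0242% and 0.0195% against 0.0182%, 0.0275% and 0.0258%. Microglia, precursors and both of these neuron classes thus had knockout replicates 2 and 3 above all wild type libraries and knockout replicate 1 within or below them, whereas border macrophages had all knockout libraries below all wild type libraries. Astrocytes ranged from 0.0445% to 0.106%, oligodendrocytes from 0.0251% to 0.0652% and striatal projection neurons from 0.0114% to 0.0184%, and in each of these 3 classes knockout replicate 2 lay within the wild type range. No test is given for these sums, because the members were listed with earlier results of these data known.

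**Figure D2:**
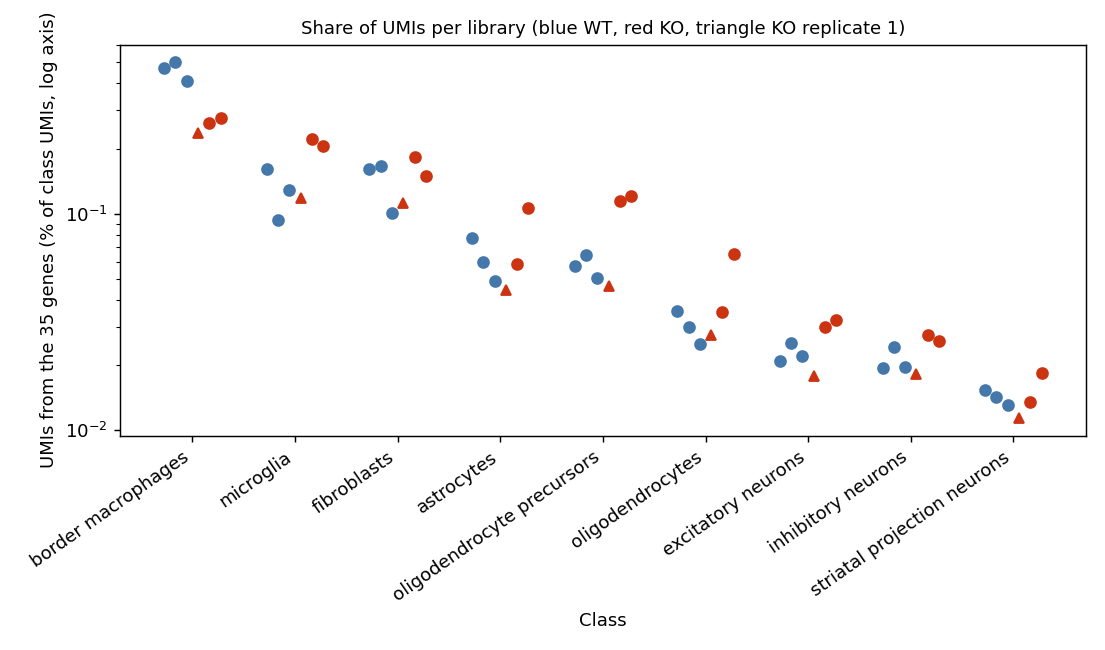
Share of each class's UMIs that came from the 35 members (vertical axis, percent, log scale) in every library, blue for wild type and red for knockout, with a triangle for knockout replicate 1. Microglia run from 0.0935% to 0.221%, and border macrophages run from 0.411% to 0.5% in SwDI/TWT and from 0.236% to 0.276% in knockout.

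In microglia, RNA of the nuclear body gene Sp100, the ligases Trim30a and Rnf213, the kinase Eif2ak2 and the Isg15 ligase Herc6 was higher in every knockout than in every wild type library, while the chemokine Cxcl10 was lower in every knockout library. None of the members passed an adjusted p of 0.05 in edgeR's quasi-likelihood test with its filter on low counts, and none of the 3984 genes tested did (0%). Of the 35 members 11 passed that filter, of which 10 had a log2 fold change above 0 and 1 below. The filter can be met through the libraries of a single group. Sp100 and Rnf213 met it through the knockout libraries alone, and Eif2ak2 and Herc6 also depended on them to meet it. Trim30a met it in the wild type libraries as well. The counts of direction, overlap and small p and the median given here are therefore partly set by the filter. The median of the 11 was 0.37, against 0.027 over all tested genes, of which 52.5% were above 0. The 4 members with an unadjusted p under 0.05, all higher, were Sp100, Trim30a, Eif2ak2 and Rnf213, where 4.67% of all tested genes were such and higher. The 5 of 11 with all knockout libraries above all wild type libraries stand beside 6.05% of tested genes. DESeq2 called no member and gave 3 an unadjusted p under 0.05. Members that did not pass the filter are not part of these counts.

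Sp100 was 21.8, 29.2 and 26.5 CPM in wild type microglia and 64.1, 106 and 95.1 CPM in knockout microglia, on 3, 3 and 5 against 31, 21 and 20 UMIs. All knockout libraries were above all wild type libraries, and the means were 25.9 ± 3.74 and 88.5 ± 21.8 CPM (SD, n = 3 each). Its log2 fold change was 1.72 (SE 0.42, adjusted p = 0.757, edgeR) with 6 libraries and 1.88 (adjusted p = 0.310) without knockout replicate 1. A UMI of Sp100 was present in 1.64%, 2.14% and 1.20% of SwDI/TWT and in 8.25%, 8.03% and 6.79% of knockout microglia. In excitatory neurons, a class of another lineage, the share was at most 0.219% in any library. Median depth was 677 to 681 UMIs in SwDI/TWT and 1396, 734 and 718.5 UMIs in knockout microglia, and 2674 to 8602 UMIs in excitatory neurons. The part of depth in the share of microglia with Sp100 was not tested.

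Trim30a was 109, 68.2 and 122 CPM in SwDI/TWT and 184, 268 and 167 CPM in knockout microglia. The groups did not overlap, with means of 99.7 ± 28.1 and 206 ± 54.3 CPM, a log2 fold change of 1.01 (SE 0.37, adjusted p = 0.757, edgeR) and an adjusted p of 0.628 without knockout replicate 1. The share of microglia with a UMI was 7.65%, 5% and 7.97% in SwDI/TWT and 20.0%, 19.3% and 11.8% in knockout. Eif2ak2, the kinase that stops translation on sensing double-stranded RNA, was 21.8, 39.0 and 53.0 CPM in SwDI/TWT and 84.8, 137 and 57.1 CPM in knockout microglia, with a log2 fold change of 1.24. Knockout replicate 3 was only just above the highest wild type library. Rnf213, a large ubiquitin ligase, was 36.4, 39.0 and 42.4 CPM in SwDI/TWT and 66.2, 70.8 and 95.1 CPM in knockout microglia, with a log2 fold change of 0.95. Herc6, the main ligase for Isg15 in mice, was 29.1, 19.5 and 79.5 CPM against 106, 86.0 and 80.9 CPM, with a log2 fold change of 1.0. Wild type replicate 3 was close to the knockout libraries for Herc6.

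**Figure D3:**
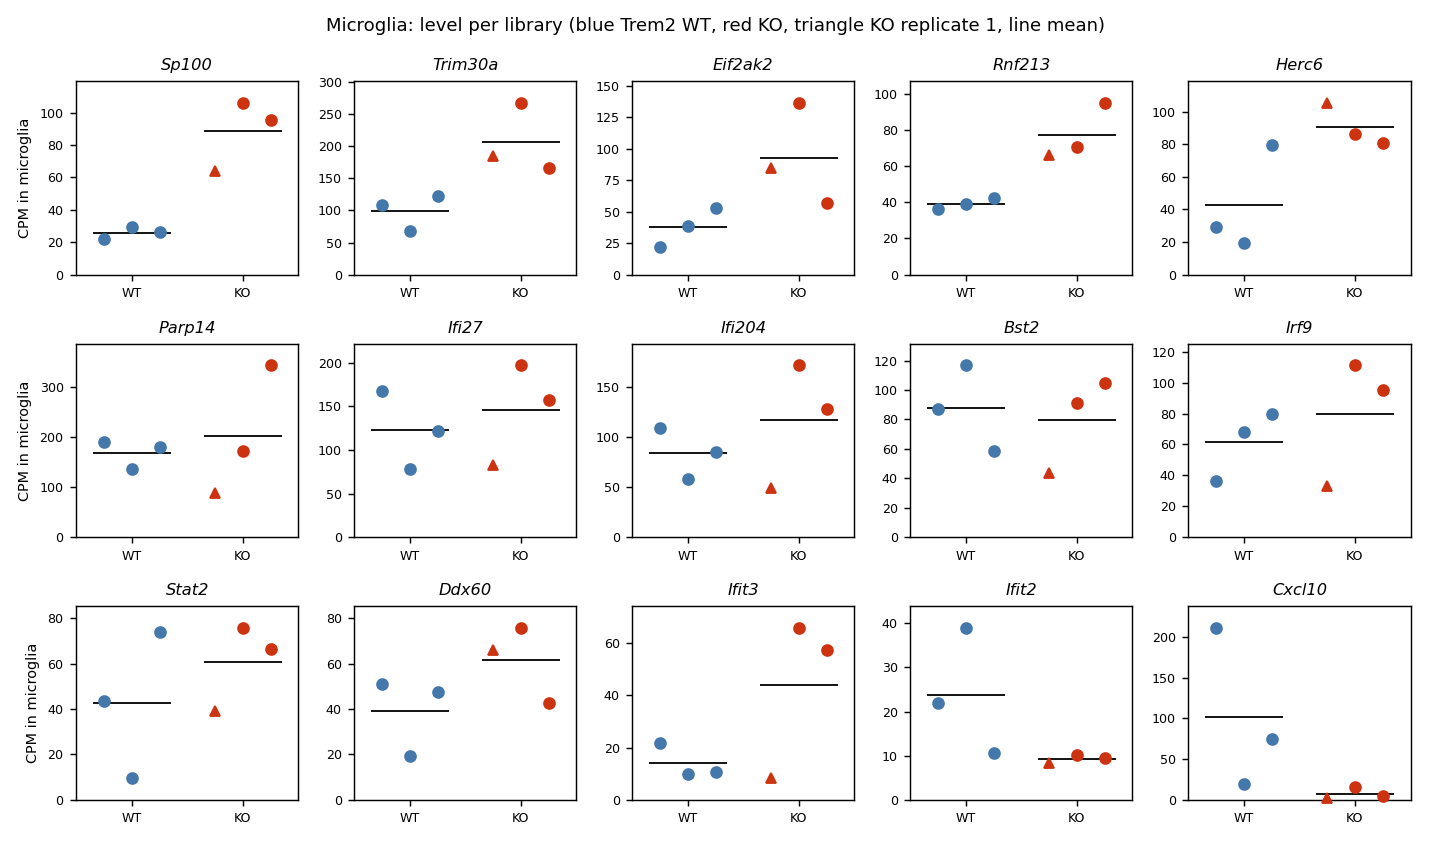
CPM of 15 members in microglia, one panel for each gene, with a point for each library (blue wild type, red knockout, triangle knockout replicate 1) and a line at each group mean. Sp100 lies between 21.8 and 29.2 CPM in SwDI/TWT and between 64.1 and 106 CPM in knockout. Cxcl10 and Ifit2 have the reverse order, on few UMIs in several libraries.

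The other members with many microglial UMIs overlapped between genotypes, and most had knockout replicate 1 apart from the other knockout libraries. Parp14 was 189, 136 and 180 CPM in SwDI/TWT and 89.0, 172 and 343 CPM in knockout microglia. Ifi204 was 109, 58.5 and 84.8 CPM against 49.7, 172 and 128 CPM. Ifi27 was 167, 77.9 and 122 CPM against 82.7, 197 and 157 CPM. For all 3, knockout replicate 1 was within or below the wild type range and knockout replicate 2 or 3 was the highest library. Irf9 was 36.4, 68.2 and 79.5 CPM against 33.1, 111 and 95.1 CPM, and Stat2 was 43.7, 9.74 and 74.2 CPM against 39.3, 75.9 and 66.6 CPM. Bst2 was 87.3, 117 and 58.3 CPM against 43.4, 91.0 and 105 CPM. Ddx60 was 50.9, 19.5 and 47.7 CPM against 66.2, 75.9 and 42.8 CPM. Their log2 fold changes with 6 libraries ran from -0.16 for Bst2 to 0.64 for Ddx60, the latter from the fit without a filter.

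The members' median moved both ways when 1 library was left out. It was 0.17 without knockout replicate 2, with 8 of 13 members above 0, and 0.20 without wild type replicate 2, with 12 of 17 above 0. It was 0.77 without wild type replicate 1 and 0.65 without wild type replicate 3. In the 5 libraries of one software version, 15 members passed the filter, of which 14 had a log2 fold change above 0, with a median of 0.74 against 0.008 over all 4417 tested genes. No member was called (0.0453% of tested genes were), and 6 were higher at an unadjusted p under 0.05, beside 2.99% of tested genes. Ifit3, an RNA-binding effector, was 21.8, 9.74 and 10.6 CPM in SwDI/TWT and 8.27, 65.7 and 57.1 CPM in knockout microglia. Its log2 fold change was 2.01 in the 5 libraries (adjusted p = 0.746, edgeR), while with 6 libraries it did not pass the filter. In the 5 libraries Ifit3, Sp100 and Rnf213 met the filter through knockout replicates 2 and 3, and Eif2ak2 and Herc6 depended on them to meet it. The counts of direction and the median there are thus also partly set by the filter. Ifit2, of the same family as Ifit3, was 21.8, 39.0 and 10.6 CPM against 8.27, 10.1 and 9.51 CPM. These 2 neighbours of one gene cluster thus had opposite order in knockout replicates 2 and 3. Both genes rested on few UMIs. For Ifit2, wild type replicate 3 held as few UMIs as knockout replicates 2 and 3, and its higher CPM came from a smaller class total.

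All 35 members could be compared without a filter on low counts, where fitted folds of genes with few UMIs depend on the small count that edgeR adds. With 6 libraries 27 of the 35 were above 0 (59.2% of 17602 genes were), with a median of 0.57 against 0.20. Without knockout replicate 1, 30 of 35 were above 0 (54.2% of genes), with a median of 0.77 against 0.036. Eif2ak2, Herc6, Rnf213, Sp100, Trim30a and Usp18 had all knockout libraries above all wild type libraries, as had 4.35% of genes. Cxcl10 and Ifit2 had all below, as had 3.58%, and for Ifit2 the lowest wild type library was only just above the knockout libraries. In the 5 libraries 14 members were above, beside 9.38% of genes, and the same 2 were below, beside 6.8%. One member, Cxcl10, passed an adjusted p of 0.05 in both fits, where 1.26% and 0.0313% of genes were called.

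**Figure D4:**
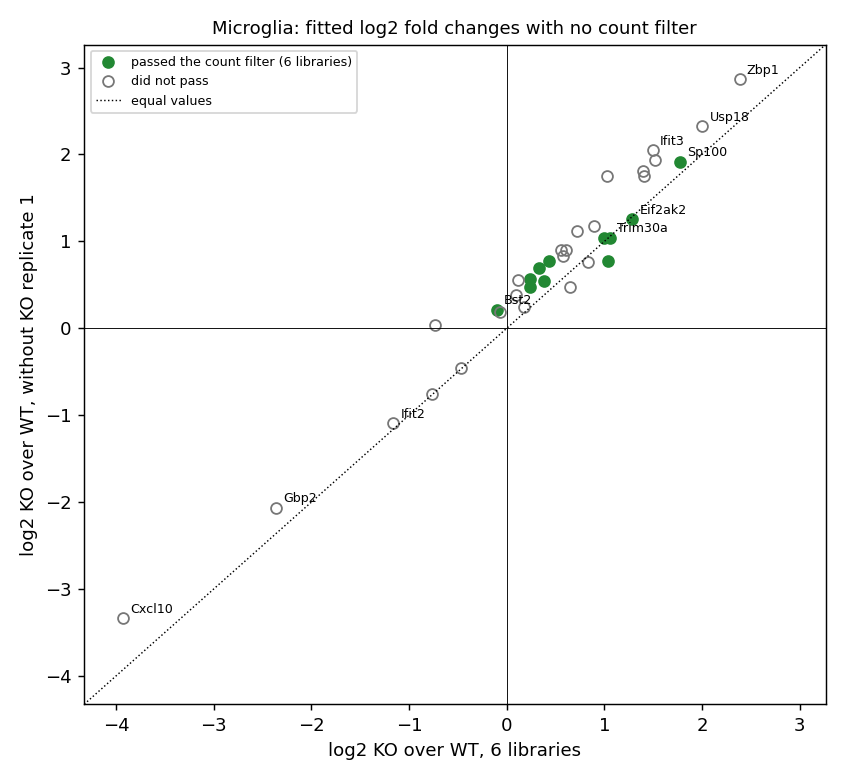
Log2 fold change of knockout over wild type microglia for each member from the fit without a filter, with all 6 libraries on the horizontal and without knockout replicate 1 on the vertical axis; filled points passed the filter and the dotted line marks equal values. 27 members lie above 0 on the horizontal and 30 on the vertical axis, and Cxcl10 lies far below at -3.92 and -3.34.

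Cxcl10, a chemokine that draws T cells, was 211, 19.5 and 74.2 CPM in SwDI/TWT and 2.07, 15.2 and 4.76 CPM in knockout microglia, on 29, 2 and 14 against 1, 3 and 1 UMIs. The lowest wild type library was close to the highest knockout library. Without a filter the log2 fold change was -3.92 (adjusted p = 1.23e-06, edgeR) with 6 libraries and -3.34 (adjusted p = 0.000718) without knockout replicate 1. With the filter it was tested only in the 5 libraries, at -3.38 (SE 0.74, adjusted p = 0.0830, edgeR). The UMIs came from very few nuclei: 2, 1 and 1 microglia in the wild type and 1, 1 and 1 in the knockout libraries held any. One nucleus of wild type replicate 1 held 22 of the 29 UMIs of that library, in a nucleus of 902 UMIs. The fitted p treats the library as the unit and takes no account of this.

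The nuclei with Cxcl10 were among those richest in other members. That same nucleus had UMIs of 17 other members, and the other Cxcl10 nuclei of wild type mice had 10, 11 and 8. The Cxcl10 nuclei of knockout replicates 1, 2 and 3 had 10, 14 and 1 other members. With a limit of 8 other members, set after these values were seen, 2, 1 and 3 wild type and 5, 5 and 3 knockout microglia were rich in members. That is 1.09%, 0.714% and 1.20% of SwDI/TWT and 1.59%, 2.01% and 1.07% of knockout microglia, which overlap. Of these, 2, 1 and 1 in SwDI/TWT and 1, 1 and 0 in knockout held Cxcl10, with 29, 2 and 14 against 1, 3 and 0 UMIs. Outside them the only Cxcl10 UMI was 1 in knockout replicate 3. The difference in Cxcl10 was therefore one of UMIs in 4 wild type and 3 knockout nuclei, while the share of nuclei rich in members did not separate the genotypes.

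By contrast, single UMIs of members were spread over many microglia. At least 1 member UMI was present in 48.1%, 42.1% and 46.6% of SwDI/TWT and in 68.6%, 62.3% and 65.4% of knockout microglia. Excitatory neurons had nearly the same shares, 48.5%, 49.5% and 50.3% against 74.8%, 63.3% and 65.5%, and inhibitory neurons had 44.9%, 47.8% and 42.1% against 73.6%, 57.5% and 64.0%, so this separation was not one of microglia alone. Because knockout replicate 1 was deeper, every nucleus was thinned to 500 UMIs, a number chosen after the depths were seen, which left out no nucleus. The microglial shares were then 39.9%, 32.9% and 33.1% in SwDI/TWT and 36.5%, 51.4% and 52.9% in knockout microglia. Nuclei with UMIs of at least 2 different members made up 12.6%, 9.29% and 9.16% against 13.3%, 24.9% and 22.9% after thinning. Excitatory neurons, thinned in the same way, had 11%, 11.5% and 9.85% against 8.98%, 14.0% and 14.7% with a member UMI. Inhibitory neurons had 8.29%, 12% and 6.88% against 7.30%, 13.3% and 12.9%. For at least 1 member UMI at equal depth, knockout replicate 1 thus fell among or next to the wild type libraries in all 3 classes. Knockout replicates 2 and 3 stood above them. Nuclei with at least 2 different members made up 0.450%, 0.815% and 0.448% against 0.328%, 0.647% and 1.21% of excitatory neurons. In inhibitory neurons they made up 0%, 1% and 0.265% against 0.197%, 0% and 0%. In neither neuron class did this second share put both knockout replicates 2 and 3 above all wild type libraries.

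The rest of the pathway was read from lists of genes outside the set. Of the 6 receptor genes 5 were tested in microglia, 3 above and 2 below 0, with a median log2 fold change of 0.012. Ifnar1 was at 0.01, Ifnar2 at 0.31 and Ifngr1 at -0.09. Of the 13 signal transduction genes 10 were tested, 8 above 0, with a median of 0.13. Without knockout replicate 1, 5 were above and 5 below 0, with a median of 0.028. The kinase Jak1 was at 0.05, the transcription factor Irf8 at 0.05 and the kinase Tyk2 at -0.69. Tyk2 was 94.6, 136 and 111 CPM against 70.3, 75.9 and 61.8 CPM and so did not overlap. Of all tested genes 4.54% were likewise below in every knockout library. Of the 15 nucleic acid sensing genes 5 were tested, 3 above 0, with a median of 0.095. Of 37 other interferon-induced genes 12 were tested, 10 above 0, with a median of 0.36, close to the median of the members. Without knockout replicate 1, 12 of 14 were above 0, with a median of 0.57. With 6 libraries none of the listed genes was called (0% of tested genes), and none had an unadjusted p under 0.05.

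Interferons themselves were at or near 0, so no ligand could be compared. Ifnb1 and Ifng had 0 UMIs in all kept nuclei, which allows up to 0.028 CPM, and Ifnk, Ifna2 and Ifne had 8, 3 and 3. Early activation genes, which tissue handling can raise, are given beside the microglial result. Of the 15 listed 4 were tested, all above 0, with a median of 0.39, and without knockout replicate 1 the median of 5 was 0.71. Ccl3 was 80.1, 48.7 and 5.30 CPM in SwDI/TWT and 41.4, 55.6 and 162 CPM in knockout microglia, and Ccl4 was 255, 29.2 and 21.2 CPM against 55.9, 75.9 and 266 CPM. Both chemokines overlapped between genotypes. Their part in the members' difference was not tested. Summed microglial markers were 19236 to 25929 CPM in SwDI/TWT and 16715 to 24074 CPM in knockout microglia.

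In oligodendrocyte precursors 28 members had a UMI outside knockout replicate 1. Of these, 13, among them Ddx60, Samd9l and Rtp4, were higher in knockout replicates 2 and 3 than in any wild type library. The same held for 10.3% of all genes. Knockout replicates 2 and 3 had member shares above every wild type library, and knockout replicate 1 had the lowest share of all 6. The 6-library test held 2 of the 35 members among 3358 genes, and neither they nor any other gene was called by edgeR (0%). Neither of the 2 had an unadjusted p under 0.05, and DESeq2 also called 0 of them. Without knockout replicate 1, 3 of 35 passed the filter, all 3 above every wild type library (as were 13.4% of the 3497 genes), with a median of 1.21 against 0.007 over all genes. None of the 3 was called, where 0.143% of genes were. Ddx60 and Samd9l met this filter through knockout replicates 2 and 3, so the order and the median of the 3 are partly set by the filter.

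Ddx60 was 33.5, 58.7 and 15.9 CPM in SwDI/TWT and 28.5, 119 and 149 CPM in knockout precursors, on 5, 8 and 3 against 23, 18 and 33 UMIs. Its log2 fold change was 1.87 (adjusted p = 0.0926, edgeR) without knockout replicate 1, and with 6 libraries it did not pass the filter. The share of precursors with a Ddx60 UMI was 3.54%, 2.24% and 1.91% in SwDI/TWT and 8.57%, 12.1% and 15.8% in knockout. In excitatory neurons it was 0.148% to 0.966%. The part of depth in these shares was not tested. Samd9l was 33.5, 73.3 and 42.4 CPM against 38.4, 132 and 113 CPM, with a log2 fold change of 0.86 (adjusted p = 0.714, edgeR) and, without knockout replicate 1, 1.21 (adjusted p = 0.745). Both genes had knockout replicate 1 inside the wild type range. Rnf213 was 6.70, 7.33 and 10.6 CPM against 32.2, 46.4 and 27.0 CPM on 1, 1 and 2 against 26, 7 and 6 UMIs, with no overlap.

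Without a filter 30 members could be compared in precursors, and 27 had a log2 fold change above 0, beside 62.1% of all 18011 genes. The median was 1.32 against 0.28 over all genes. Irf7, Rnf213, Rtp4 and Usp18 had all knockout libraries above all wild type libraries, beside 3.68% of genes, and 0 members had all below, beside 3.29%. Rtp4, a chaperone of receptors, had 0, 0 and 0 UMIs in SwDI/TWT and 18, 1 and 13 UMIs in knockout precursors. It was the 1 member called in this fit (adjusted p = 0.0054, edgeR), where 2.4% of genes were, and its adjusted p was 0.0780 without knockout replicate 1. Rnf213 and Usp18 were in this position in microglia as well. Sp100 and Cxcl10 had 0 UMIs in this class, which allows up to 1.81 CPM.

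Thinning to 500 UMIs gave 29.2%, 23.9% and 24.2% of SwDI/TWT and 21.6%, 32.8% and 45.4% of knockout precursors with a member UMI. Nuclei with UMIs of at least 2 different members made up 1.77%, 2.99% and 3.82% against 2.04%, 8.62% and 13.8%. The precursors formed a larger and a smaller cluster, and the smaller held 29 of the 116 precursors of knockout replicate 2. In the larger cluster alone, compared after these counts were seen, the member share was 0.0581%, 0.0629% and 0.0508% in SwDI/TWT and 0.0451%, 0.117% and 0.121% in knockout. Oligodendrocyte markers summed to 445 to 1056 CPM in SwDI/TWT and 488 to 2067 CPM in knockout precursors, highest in knockout replicate 2. Microglial markers summed to 143 to 188 CPM and 172 to 196 CPM, and 7 of the 8 border macrophage markers were at 0. The part of the oligodendrocyte RNA in the result was not tested.

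**Figure D5:**
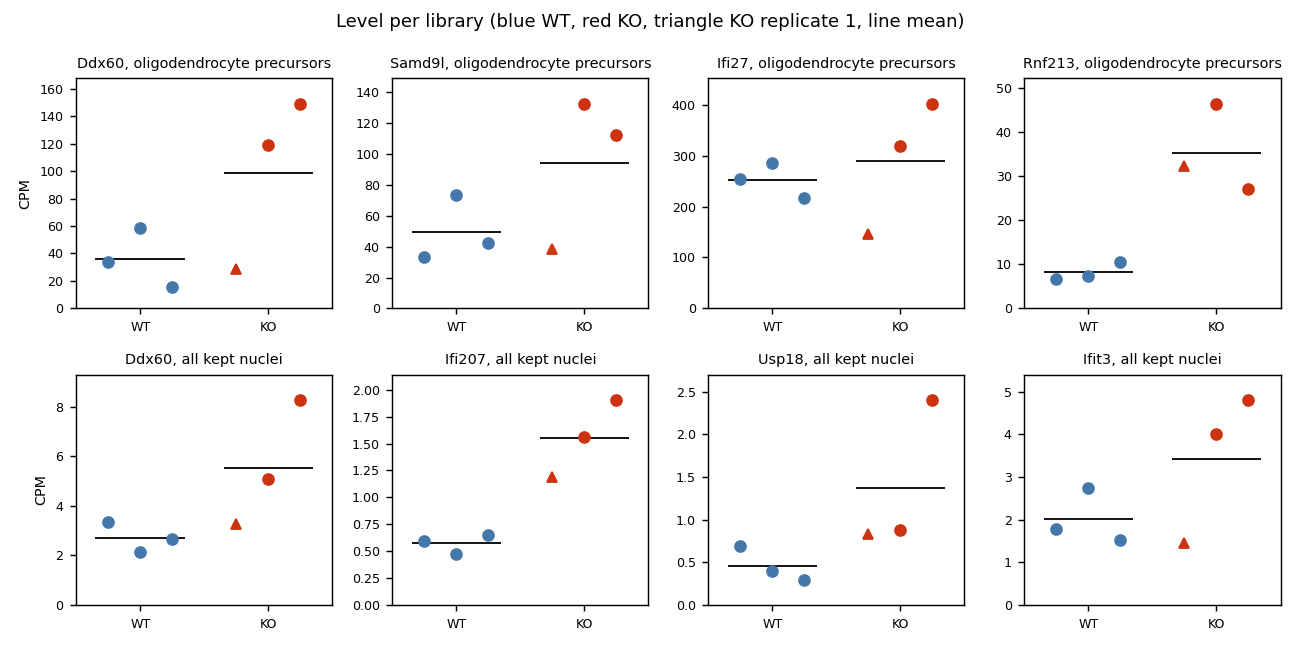
CPM in each library of Ddx60, Samd9l, Ifi27 and Rnf213 in oligodendrocyte precursors and of Ddx60, Ifi207, Usp18 and Ifit3 in all kept nuclei (blue wild type, red knockout, triangle knockout replicate 1, line at the group mean). Ddx60 of precursors is at 119 and 149 CPM in knockout replicates 2 and 3 and at most at 58.7 CPM in the other libraries.

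In border macrophages some antiviral members were lower in every knockout library, as were many of the genes with enough counts to test. Bst2, Herc6, Ifi204, Ifit3, Oasl2, Parp14, Samd9l and Sp100 had all knockout libraries below all wild type libraries, 8 of the 33 members with a UMI, beside 2.4% of all genes with a UMI but 15.7% of the 223 genes that passed the filter. Rtp4 was the 1 member with all above, beside 5.65% of genes. This comparison was added after the data were seen, although knockout replicate 2 had only 13 such nuclei. Parp14 was 640, 529 and 591 CPM in SwDI/TWT and 170, 61.0 and 381 CPM in knockout border macrophages. It was the 1 member among the 223 genes that passed the filter, with a log2 fold change of -0.89 (adjusted p = 0.555, edgeR), and 0% of genes were called, while its unadjusted p was 0.0859 and DESeq2 called 0 members.

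Samd9l was 349, 353 and 325 CPM in SwDI/TWT and 108, 183 and 169 CPM in knockout border macrophages. Bst2 was 291, 470 and 384 CPM against 116, 61.0 and 282 CPM. Oasl2, an oligoadenylate synthetase-like protein, was 524, 294 and 148 CPM against 46.5, 0 and 70.5 CPM. Ifi204 was 524, 411 and 355 CPM against 287, 183 and 324 CPM, so that the nearest libraries were close. Its relative Ifi207 did not follow: it was 175, 294 and 236 CPM against 403, 610 and 211 CPM. Without a filter 23 of 33 members were below 0, with a median of -0.28, while the median of all genes was 0.98. All genes together were thus far from 0 in this fit, and the members' values are to be read beside that median. No member was called there (0.945% of genes were). The same 8 members were below without knockout replicate 1, beside 3.8% of genes and 23.5% of those that passed the filter.

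RNA of excitatory and inhibitory neuron markers in these nuclei also differed between genotypes, without overlap. Excitatory neuron markers summed to 236 to 640 CPM in SwDI/TWT and 829 to 1037 CPM in knockout border macrophages. Inhibitory neuron markers summed to 116 to 411 CPM against 427 to 813 CPM. Striatal projection neuron markers overlapped, at 235 to 621 CPM against 366 to 2199 CPM. Microglial markers summed to 11143 to 18810 CPM against 6141 to 12642 CPM, and the class's own markers to 7035 to 8966 CPM against 4453 to 8743 CPM. Monocyte and neutrophil markers were 0, 0 and 4227 CPM against 54.2, 915 and 254 CPM. The microglial, own-class and monocyte sums overlapped between genotypes. The part of neuronal RNA or of the makeup of the class in the members' difference was not tested.

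Astrocytes and oligodendrocytes held few members that passed the filter, 4 of 35 in each, and none was called by edgeR (0% of tested genes in both) or DESeq2. One of the 4 in astrocytes and 0 of the 4 in oligodendrocytes had an unadjusted p under 0.05 in edgeR, beside 8.11% of genes in astrocytes. Herc6 in astrocytes was 33.2, 29.3 and 20.3 CPM in SwDI/TWT and 64.0, 49.4 and 51.7 CPM in knockout libraries, without overlap (as in 7.39% of genes). It rested on 10, 8 and 5 against 65, 6 and 9 UMIs. It met the filter only through the knockout libraries, so its order and its small p are partly set by the filter. Without the filter its unadjusted p was 0.0695 (edgeR). Its log2 fold change was 1.08 (adjusted p = 0.590, edgeR), and 0.68 without knockout replicate 1. Stat2 in astrocytes was 43.1, 58.6 and 40.5 CPM against 32.5, 41.2 and 126 CPM, so that its log2 fold change of 0.33 rested on knockout replicate 3 and was -0.36 without it. Eif2ak2 and Ifi27 were at 0.00 and -0.01. Eif2ak2 of astrocytes was 26.5, 40.3 and 52.7 CPM against 34.4, 41.2 and 45.9 CPM, and Ifi27 was 199, 121 and 122 CPM against 93.5, 148 and 230 CPM. Both overlapped fully.

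In oligodendrocytes Xaf1 was 64.6, 43.0 and 37.9 CPM in SwDI/TWT and 55.3, 86.1 and 61.6 CPM in knockout libraries, with a log2 fold change of 0.45. Ifi27 was 161, 160 and 99.6 CPM against 83.8, 141 and 351 CPM, with a log2 fold change of 0.38 that was -0.30 without knockout replicate 3. Stat2 was 41.9, 29.3 and 36.3 CPM against 24.0, 35.6 and 66.7 CPM. Knockout replicate 3 was thus the highest library for Stat2 in both glial classes. Adar was 19.2, 22.4 and 26.9 CPM against 21.2, 25.2 and 22.2 CPM, with a log2 fold change of -0.02. Without a filter Herc6, Ifit1 and Rtp4 had all knockout libraries above all wild type libraries, beside 4.64% of genes. Herc6 was 6.98, 6.88 and 4.74 CPM against 26.7, 22.3 and 8.55 CPM (adjusted p = 0.174, edgeR).

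Neurons held the members at low levels, apart from Adar and Stat2, and none was called in any of the 3 neuron classes by edgeR (0% of tested genes in excitatory, inhibitory and striatal projection neurons) or DESeq2. An unadjusted p under 0.05 was given to 1 of the 8 members tested in excitatory neurons, beside 5% of genes, and to 0 of 4 and 0 of 5 in the other two. Adar in excitatory neurons was 53.8, 81.3 and 69.1 CPM in SwDI/TWT and 64.5, 93.9 and 102 CPM in knockout libraries, with a log2 fold change of 0.40. In inhibitory neurons it was 75.1, 86.4 and 81.0 CPM against 87.9, 124 and 104 CPM, without overlap (as in 7.68% of genes), with a log2 fold change of 0.42 (adjusted p = 0.638, edgeR). In striatal projection neurons it was 62.5, 62.9 and 52.8 CPM against 64.2, 61.5 and 86.0 CPM, with a log2 fold change of 0.25. The editing enzyme thus had a positive fold change in all 3 classes, none beyond the test. Rnf213 in excitatory neurons was 1.91, 2.24 and 3.27 CPM against 8.82, 2.03 and 11.5 CPM, with a log2 fold change of 1.73 (adjusted p = 0.667, edgeR) that was 1.10 without knockout replicate 1, and it overlapped. Herc6 was 29.0, 31.4 and 19.6 CPM against 31.9, 42.4 and 12.6 CPM, and Irf9 was 15.9, 19.4 and 21.3 CPM against 6.47, 15.7 and 27.9 CPM.

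Irf9 had the most negative fold change among the 4 members that passed the filter in inhibitory neurons. It was 19.8, 24.3 and 14.8 CPM in SwDI/TWT and 7.43, 13.6 and 19.3 CPM in knockout libraries, with a log2 fold change of -0.62. Stat2 of inhibitory neurons was 26.9, 33.3 and 42.7 CPM against 26.8, 52.1 and 48.9 CPM, and Ifi27 was 25.5, 43.2 and 16.6 CPM against 15.3, 31.0 and 30.9 CPM. All 3 overlapped between the genotypes. In striatal projection neurons 5 members passed the filter, 1 above and 4 below 0. Stat2 was 31.2, 30.7 and 39.6 CPM against 20.0, 33.6 and 31.3 CPM. Irf9 was 13.8, 16.3 and 11.3 CPM against 6.78, 9.93 and 19.1 CPM, and Xaf1 was 7.99, 4.91 and 3.49 CPM against 1.60, 7.56 and 3.65 CPM. The log2 fold changes of these 3 ran from -0.37 to -0.26, and each had knockout replicate 1 as its lowest library.

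Summed over all kept nuclei, 31 of 35 members passed the filter and 26 of them had a log2 fold change above 0, with a median of 0.35 against 0.051 over all 16425 genes, 54.4% of which were above 0. None was called by edgeR (0%), and 6 had an unadjusted p under 0.05, beside 3.77% of genes. DESeq2 called 0 and gave 8 an unadjusted p under 0.05. In such sums, more nuclei of a class and more RNA in each nucleus cannot be told apart. Ifi207 was 0.594, 0.471 and 0.648 CPM in SwDI/TWT and 1.19, 1.56 and 1.9 CPM in knockout libraries, with a log2 fold change of 1.45 (adjusted p = 0.699, edgeR). Usp18 was 0.693, 0.392 and 0.288 CPM against 0.835, 0.879 and 2.4 CPM, with 1.58. Sp100 was 0.891, 0.784 and 1.58 CPM against 1.78, 2.34 and 3.06 CPM, with 1.12. These 3 did not overlap, and with Irf1, Rnf213 and Trim30a they made 6 members with all knockout libraries above, beside 9.01% of genes. Ddx60 was 3.36, 2.12 and 2.66 CPM against 3.26, 5.08 and 8.27 CPM, with 1.0. Cxcl10 was 2.87, 0.784 and 1.37 CPM against 0.0209, 0.391 and 0.827 CPM, with -2.31. Cxcl10 overlapped here by 1 library, unlike in microglia. Without knockout replicate 1, 27 of 31 members were above 0, with a median of 0.44, and 13 did not overlap, beside 20.7% of genes.

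Whether the genotype difference in microglia departed from that of another class was tested by an interaction in edgeR. Against astrocytes 13 members entered the test, against oligodendrocytes 22 and against excitatory neurons 28. No member was called, where 0.0714%, 0.0609% and 0.0638% of genes were. Members without UMIs in the other class, such as Trim30a against oligodendrocytes (SE 5582), could not be assessed, so their outcome carries no information. An unadjusted p under 0.05 was given to 1 member in each, beside 5.91%, 5.33% and 5.66% of genes. The higher values of Sp100 and Trim30a in knockout microglia are therefore not shown to differ from the genotype difference in those classes, several of which had next to no UMIs of these genes. The border macrophages and precursors were not part of these tests, so their departure from microglia was not tested.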

How the data were processed

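Single-nucleus RNA of the frontal lobe was measured in 6 libraries, 1 for each mouse. Nuclei were prepared without permeabilization and sequenced by a droplet-based 3′ method, per the labels' protocols. The deposited matrices hold UMI counts for each gene and barcode, which the authors made with Cell Ranger, and the build mm10 and Seurat are named as well, per the submitters' processing notes. The file headers name Cell Ranger 7.0.0 for knockout replicate 1 and 6.1.2 for the other 5 libraries. No source used here gives whether introns were counted.

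Barcodes below 200 detected genes or above 5% of UMIs from mitochondria were dropped, and 1273 doublets called by Scrublet were removed, leaving 33008 of 39752 barcodes. Library totals ran from 11493087 to 51317961 UMIs. Nuclei were clustered without the members or listed pathway genes (scanpy 1.11.5, 2000 variable genes, 30 components, 15 neighbours, Leiden resolution 1, with 0.5 as an alternative), and clusters were named from marker lists. The members, the pathway lists and the markers were chosen with earlier results of these data known. Values are printed in every library for Sp100, Trim30a and Cxcl10, the 12 members with the most microglial UMIs, the 4 members with the smallest p in each other tested class, the 3 with the most UMIs in untested classes, and members that were called or did not overlap in microglia. Usp18 is an exception, as only its mean is given for microglia. Other members are named where a count or a class level turns on them and were then chosen after their values were seen.

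Counts were summed over the nuclei of a class in each library. They were tested with edgeR 4.0.16 (R 4.3.3), using the quasi-likelihood test, TMM scaling, filterByExpr and Benjamini-Hochberg adjustment over all tested genes, with a threshold of 0.05 and at least 20 nuclei in every library. Fold changes are log2 values of knockout over wild type from that fit, and CPM were computed from UMI totals without TMM. Alternatives were DESeq2 1.42.0, RLE scaling, no filter, and each library left out. Scripts were tested on simulated data. The design names 6 mice, and p-values measure the spread between these libraries. Limits for a count of 0 use 3 counts, and they cover counting error only. Gene positions and intron bases came from GENCODE M21, which matched 35 members by gene identifier. One gene of the signal transduction list is not reported here by name.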

Additional observations from a re-analysis of the deposited data

How the results depend on the processing

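No paired analysis was possible because the labels give no replicate numbers, and those used here follow deposition order and pair no mice. The number of members called changed from 0 to 1 in 4 settings: microglia without a filter on low counts (Cxcl10), the same without knockout replicate 1 (Cxcl10, an alternative added after seeing the data), oligodendrocyte precursors without a filter (Rtp4), and microglia against astrocytes without knockout replicate 2 (Cxcl10), where leaving out 1 library gave counts from 0 to 1. The filter's absence adds genes with few UMIs to the test, and otherwise the cause was not tested. The other 118 counts under alternatives stayed at 0, as did the 63 alternative member shares within 1 SD of their main values. Of the alternative fold changes of named members 25 changed sign and 234 did not, and the cause was not tested.

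Leaving out 1 library in turn moved these log2 fold changes across 0. In microglia the range was -0.41 to 0.17 for Bst2, -0.059 to 0.46 for Ifi27, -0.037 to 0.65 for Irf9, -0.41 to 0.53 for Parp14 and -0.046 to 1.01 for Stat2. In astrocytes it was -0.28 to 0.26 for Eif2ak2, -0.33 to 0.24 for Ifi27 and -0.36 to 0.72 for Stat2, and RLE scaling gave 0.0013 for Ifi27. In excitatory neurons it was -0.020 to 0.67 for Herc6 and -0.68 to 0.00099 for Irf9, and in inhibitory neurons -0.44 to 0.24 for Ifi27. It was -0.016 to 0.43 for Ifi27 in precursors. In oligodendrocytes it was -0.14 to 0.17 for Adar, -0.30 to 0.68 for Ifi27 and -0.27 to 0.36 for Stat2. Depth limits what can be seen: microglia gave 102639 UMIs in the smallest library, where 3 UMIs are 29.2 CPM, so members with few UMIs have no useful test.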

Other observations

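Over all kept nuclei, genes of the interferon pathway outside the set were counted by role. Of 13 signal transduction genes 10 had a log2 fold change above 0, with a median of 0.40, and without knockout replicate 1 the median was 0.17. Of 28 other interferon-induced genes that were tested 14 were above and 14 below 0, with a median of 0.0057, while without knockout replicate 1 it was 23 of 29, with a median of 0.26. Trim25, a ligase that activates the RNA sensor RIG-I, was 0.99, 1.57 and 1.08 CPM in SwDI/TWT libraries and 1.98, 2.64 and 4.13 CPM in SwDI/TKO libraries, with a log2 fold change of 1.26 (adjusted p = 0.699, edgeR). Nlrc5, which drives MHC class I genes, was 0.594, 0.863 and 0.432 CPM against 1.19, 1.17 and 1.74 CPM. Trim30d, a relative of Trim30a, was 1.19, 0.863 and 1.22 CPM against 1.82, 2.54 and 1.98 CPM. All 3, named for their small unadjusted p, were higher in every knockout library, as were 9.01% of all genes, and none of the listed genes was called (0% of genes).

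Fibroblasts, which were not tested because knockout replicate 2 had 9 such nuclei, had member shares of 0.161%, 0.167% and 0.101% in wild type libraries and 0.112%, 0.182% and 0.150% in knockout libraries. Samd9l, their leading member, was 136, 177 and 149 CPM against 140, 56.9 and 351 CPM. The genotypes overlapped in both values.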
